A study of Mus musculus with 12 samples.

Results

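The genes described here encode subunits of the voltage-gated sodium channels, the voltage-gated calcium channels and the hyperpolarisation-activated HCN channels of mouse prefrontal cortex. They were chosen by symbol alone, as all genes named Scn, Cacna, Cacnb, Cacng, Cacna2d or Hcn with a subunit number, and by a total of at least 10 counts over the 12 libraries. All 44 genes that the symbols matched met that minimum, out of 55401 genes in the table. Prefrontal cortex was taken from C57BL/6J males at an age of 14 weeks, 4 weeks after bilateral virus injection into its dorsomedial portion, and its polyadenylated RNA was sequenced. The 3 groups have 4 libraries each. Mice of the control group received an adeno-associated virus (AAV, a vector for gene delivery) named pAAV.1-CAG-GFP, which carries green fluorescent protein. Overexpression mice received pAAV-CAG-GFP-P2A-Ttr-WPRE.bgH, which carries the same fluorescent protein joined to the transthyretin gene Ttr. Knockdown mice received a virus with the hairpin Ttr-shRNA-2, a short RNA against Ttr driven by the U6 promoter, followed by a CAG-GFP-WPRE3 cassette for the fluorescent protein. All 3 groups therefore share the surgery, the fluorescent protein and the CAG promoter, which is active in most cell types. The control vector came from another supplier than both Ttr vectors, so vector source and Ttr manipulation cannot be told apart, and the labels name no hairpin in the control vector. RNA of infected and uninfected cells was measured together. Whether the numbered samples of a group are separate mice is not stated in the labels, so the p-values reflect sample-to-sample spread that may be technical.

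Sodium channels carry the rising phase of the action potential through one large alpha subunit, and small beta subunits with a single membrane pass tune its gating and surface level. Calcium channels couple depolarisation to transmitter release, burst firing and gene expression. Their pore is an alpha1 subunit, helped by a cytoplasmic beta subunit and an extracellular alpha2delta subunit. HCN channels open on hyperpolarisation, are modulated by cyclic AMP and set resting conductance and rhythm. Several of the Cacng genes, named for the gamma subunit of the muscle calcium channel, encode TARPs, which are auxiliary subunits of AMPA-type glutamate receptors rather than of calcium channels.

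Total counts were 19879629 to 37166146 per library, of which the 44 genes took 0.445% to 0.512%. Ttr itself had 2121 to 20940 counts in overexpression libraries, 14 to 200 in controls and 3 to 47 with knockdown. With overexpression the log2 difference from control was 7.01 ± 0.81 (SE, edgeR adjusted p = 0.0168), and with knockdown it was -1.41 ± 1.16 (SE, edgeR adjusted p = 0.936), so Ttr counts check the overexpression label and not the knockdown label. The summed level of 6 cortical excitatory neuron markers was 5491 to 7485 CPM (counts scaled to the size of the library) over the 12 libraries. These markers were thus present in every library, and their sum is not a check of which region was dissected. Markers of striatal projection neurons, 8 genes such as Drd1, Adora2a and Ppp1r1b, were present in all libraries at very unequal levels. Their sum was 209 to 888 CPM in controls, 184 to 1160 CPM with overexpression and 174 to 1002 CPM with knockdown, so the 3 groups overlapped widely. In bulk tissue, fewer cells of a type and less RNA per cell cannot be told apart.

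Levels are given as TPM, which divides counts by gene length and by library size and so allows comparison between genes. Mean TPM over the 12 libraries was at least 100 for 8 genes, between 10 and 100 for 23, between 1 and 10 for 5 and under 1 for the remaining 8.

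**Figure D1:**
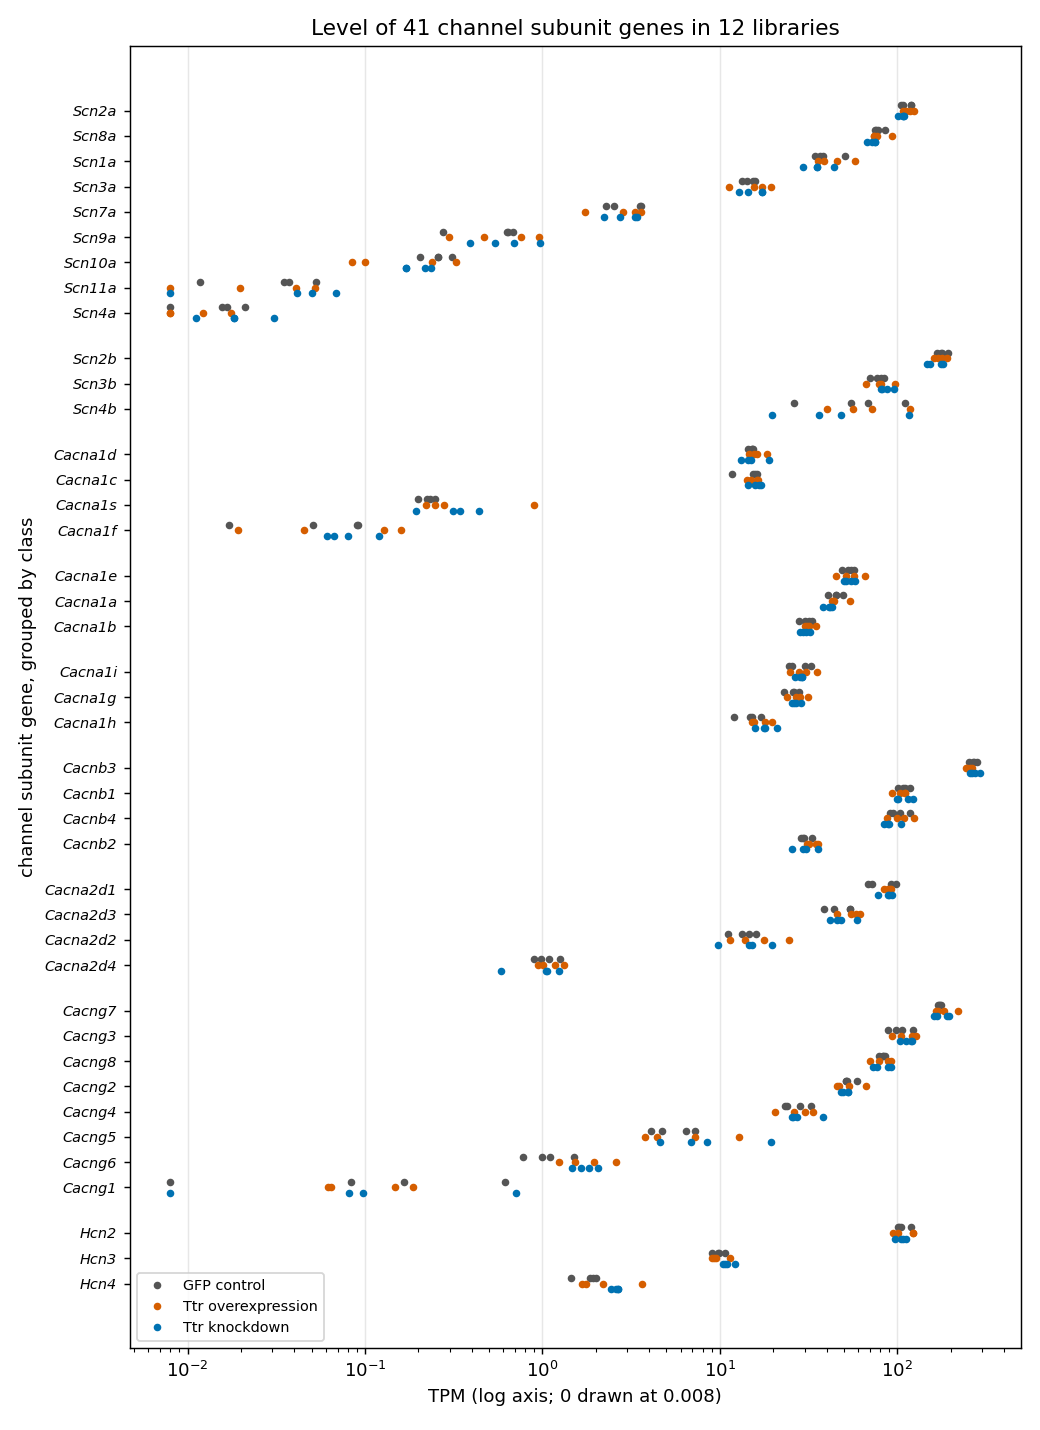
Level of each of 41 channel subunit genes in TPM on a log axis, with 1 point per library coloured by group and genes ordered within their class by mean level. The 3 groups lie over each other for nearly all genes, and the widest scatter at a high level is that of Scn4b, from 19.7 to 117 TPM.

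Of the sodium channel alpha subunits, 4 made up nearly all of the summed level. Scn2a, an alpha subunit prominent in excitatory cortical neurons, held a mean of 45.03% of the class sum, followed by Scn8a, the alpha subunit of nodes and mature axon initial segments, with 30.9%. Scn1a, which fast-spiking inhibitory neurons depend on, held 16.0%, and Scn3a, mainly a gene of the developing brain, 6.20%. In controls 1 to 4 Scn2a stood at 119.8, 108, 120.0 and 105 TPM, with overexpression at 125, 112, 118 and 107 TPM and with knockdown at 109, 108, 108 and 101 TPM. Scn2a exceeded Scn8a, Scn8a exceeded Scn1a and Scn1a exceeded Scn3a in 12 of 12 libraries, so these 4 had the same order in every group. The other alpha subunits described here belong mainly to other tissues and were low. Scn7a, an atypical sodium-sensing channel, had 1.73 to 3.58 TPM. Scn9a, a gene of sensory and some central neurons, had 0.274 to 0.968 TPM. It overlaps other genes, the most abundant of which had 783 counts in all against 773 for Scn9a. The strand setting of the counting is not given in the sources used here, so the Scn9a level is uncertain. The sensory neuron genes Scn10a and Scn11a and the muscle gene Scn4a did not exceed 0.327 TPM in any library, with at most 19, 4 and 2 counts.

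The sodium channel beta subunits Scn2b, Scn3b and Scn4b differed greatly in how steady they were. Scn2b had 167, 177, 179 and 193 TPM in controls 1 to 4, 169, 191, 160.2 and 179 TPM with overexpression and 176, 153, 180.1 and 147 TPM with knockdown. It exceeded Scn3b in 12 of 12 libraries. Scn3b ranged from 66.3 to 97.4 TPM. Scn4b, a subunit linked to resurgent sodium current, had 26.3, 68.3, 54.5 and 111 TPM in controls, 55.97, 72.03, 40.2 and 117 TPM with overexpression and 36.2, 48.1, 116 and 19.7 TPM with knockdown. Its highest and lowest libraries differed 5.97-fold and every group contained both low and high values.

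Among calcium channel alpha1 subunits, the P/Q-, N- and R-type genes that serve transmitter release were highest. Cacna1e (R-type) had a mean of 53.9 TPM, Cacna1a (P/Q-type) 44.03 TPM and Cacna1b (N-type) 30.9 TPM. Cacna1e was above Cacna1a in 11 of 12 libraries, the exception being overexpression replicate 2, and Cacna1a was above Cacna1b in all 12. The T-type genes, whose channels open near rest and drive burst firing, followed with means of 28.7 TPM for Cacna1i, 26.6 TPM for Cacna1g and 16.65 TPM for Cacna1h. Cacna1i and Cacna1g could not be ordered (Cacna1i higher in 8 of 12 libraries), while Cacna1h was below Cacna1g in 12 of 12. Of the L-type genes, which couple depolarisation to transcription, Cacna1d and Cacna1c stood side by side at means of 15.5 and 15.4 TPM. Cacna1d had the higher mean and yet was higher in only 4 of 12 libraries. Cacna1s of skeletal muscle (0.194 to 0.897 TPM) and Cacna1f of the retina (0.0171 to 0.160 TPM) were barely detected.

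In summed TPM the calcium channel beta subunits (478.9 to 534.2 TPM) exceeded each class of alpha1 subunits, the highest of which had 117.2 to 144.1 TPM. Cacnb3 alone held a mean of 52.5% of the beta subunit sum and was above Cacnb1 in 12 of 12 libraries. Cacnb3 had 269, 254, 265 and 282 TPM in controls, 246, 263, 244 and 256 TPM with overexpression and 292, 257, 264 and 272 TPM with knockdown, a 1.20-fold range over 12 libraries. Cacnb1 and Cacnb4 were alike in level (108 and 99.35 TPM, Cacnb1 higher in 7 of 12), and Cacnb2 was lowest at 31.3 TPM. In the alpha2delta class, Cacna2d1, a target of gabapentin, exceeded Cacna2d3, and Cacna2d3 exceeded Cacna2d2, in 12 of 12 libraries, with means of 86.2, 50.5 and 15.1 TPM. Cacna2d4 had a mean of 1.05 TPM and 28 to 97 counts per library. It overlaps Lrtm2 on the other strand, which had 20949 counts in all against 786 for Cacna2d4, and since the strand setting of the counting is not given in the sources used here its level is uncertain. Cacna1d and Cacna1c also overlap other genes, the most abundant with 8229 and 4876 counts in all. Their own totals were 17895 and 25917, so their close levels carry the same limit.

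The gamma and TARP class kept one order in 12 of 12 libraries. It ran from Cacng7 (179 TPM) through Cacng3 (109.9), Cacng8 (82.4), Cacng2 (52.4), Cacng4 (27.9) and Cacng5 (7.51) to Cacng6 (1.56) and Cacng1 (0.184). The 6 genes from Cacng7 to Cacng5 are the TARPs, and Cacng2 encodes stargazin, the founding member. Cacng1, the muscle gamma subunit, had 0 to 12 counts and Cacng6 had 14 to 49. Of the HCN genes, Hcn2 had a mean of 107.5 TPM, Hcn3 10.2 TPM and Hcn4, a pacemaker gene of the heart that is also expressed in thalamus, 2.24 TPM, and Hcn3 exceeded Hcn4 in 12 of 12 libraries.

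Several of these genes are neighbours on a chromosome and differed widely in level. Scn3a, Scn2a, Scn1a, Scn9a and Scn7a lie within 1327.8 kb of chromosome 2 (65457118 to 66784914, GRCm38) and had means from 0.607 to 112 TPM. Cacng7, Cacng8 and Cacng6 lie within 102.7 kb on the plus strand of chromosome 7 (3332955 to 3435667), where Cacng6 had a mean of 1.56 TPM beside 82.4 TPM for its neighbour Cacng8. Scn2b and Scn4b lie within 36.4 kb on the plus strand of chromosome 9 (45117782 to 45154152), and only the second scattered widely between libraries. Sodium channel alpha genes resemble each other in sequence, and how reads matching several genes were counted is not given in the sources used here.

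Promoter windows of 4 genes are shown because results described further on turn on these genes. Cacnb3 was the second steadiest gene between libraries, Hcn4 did not overlap between knockdown and control, and Cacna2d2 and Cacng2 moved in opposite directions with the striatal markers. Each window holds 250 bases before and 50 after a RefSeq transcript start (GRCm38.p6), read 5′ to 3′ on the gene's strand, with each CG dinucleotide in capitals. For Cacnb3, which has 2 windows, the one richer in CG is printed. The windows are chr15:98634517-98634816 (plus strand) for Cacnb3, chr9:58822699-58822998 (plus) for Hcn4, chr9:107399630-107399929 (plus) for Cacna2d2 and chr15:78119231-78119530 (minus) for Cacng2.
Cacnb3: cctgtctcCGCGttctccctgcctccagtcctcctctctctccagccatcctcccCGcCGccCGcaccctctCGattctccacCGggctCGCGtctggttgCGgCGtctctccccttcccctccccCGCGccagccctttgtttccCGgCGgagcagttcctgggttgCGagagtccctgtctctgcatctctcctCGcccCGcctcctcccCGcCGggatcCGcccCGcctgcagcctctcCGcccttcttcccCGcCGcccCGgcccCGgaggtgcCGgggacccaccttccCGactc
Hcn4: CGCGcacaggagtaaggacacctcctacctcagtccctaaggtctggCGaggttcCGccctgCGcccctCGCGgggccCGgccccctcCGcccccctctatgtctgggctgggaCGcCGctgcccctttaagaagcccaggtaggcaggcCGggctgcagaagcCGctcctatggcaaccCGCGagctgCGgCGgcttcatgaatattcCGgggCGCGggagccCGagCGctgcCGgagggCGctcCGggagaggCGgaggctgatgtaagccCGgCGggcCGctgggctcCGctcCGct
Cacna2d2: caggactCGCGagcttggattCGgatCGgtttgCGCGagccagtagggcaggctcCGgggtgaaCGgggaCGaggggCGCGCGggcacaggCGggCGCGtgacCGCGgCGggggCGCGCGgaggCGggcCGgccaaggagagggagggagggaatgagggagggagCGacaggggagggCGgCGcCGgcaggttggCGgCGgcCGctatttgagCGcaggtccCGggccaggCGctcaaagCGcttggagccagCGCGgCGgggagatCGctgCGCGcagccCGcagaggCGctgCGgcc
Cacng2: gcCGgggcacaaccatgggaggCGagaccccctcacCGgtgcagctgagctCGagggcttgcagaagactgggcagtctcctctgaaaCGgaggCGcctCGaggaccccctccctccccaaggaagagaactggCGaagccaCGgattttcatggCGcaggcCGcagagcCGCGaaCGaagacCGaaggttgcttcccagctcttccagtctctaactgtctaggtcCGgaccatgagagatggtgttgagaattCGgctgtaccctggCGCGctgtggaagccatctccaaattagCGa
They held 29, 31, 43 and 20 CG dinucleotides in that order, where the median of 32851 windows in the RefSeq table was 7. The median of the windows of the channel genes was 11. The Cacnb3 window not printed held 7 CG dinucleotides and the GC box described next 1 time. The GC box GGGCGG, searched on both strands (CCGCCC on the other), occurred 4 times in the Cacnb3 window, 2 times in that of Hcn4, 1 time in that of Cacna2d2 and 0 times in that of Cacng2, and 35.7% of all windows held it. Of the 44 genes, 32 were found in that table with 43 windows, of which 18 (41.9%) held a GC box. The low Hcn4 had more CG dinucleotides than Cacnb3, and the only window of the abundant Scn2b had 2.

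Whether these genes differed between the 3 vector groups was tested with edgeR's quasi-likelihood test on the counts. The p-values were Benjamini-Hochberg adjusted over all 18289 genes that passed its expression filter, with a threshold of 0.05. Of the 44 genes, 40 passed the filter and 4 did not (Cacna1f, Cacng1, Scn11a and Scn4a, with 62, 31, 26 and 11 counts in all). In overexpression against control 0 of the 40 passed, in knockdown against control 0, in overexpression against knockdown 0 and in the test for any difference among the 3 groups 0. DESeq2 and limma-voom also called 0 of them in each. Few genes passed anywhere in the table, with 0.00547% of all genes called in each pairwise comparison and 0.0109% in the test over 3 groups. At an unadjusted p below 0.05 there were 2 of 40 (5%) in overexpression against control, where all genes gave 6.26%, and 3 of 40 (7.5%) in knockdown against control, where all genes gave 5.68%. Overexpression against knockdown gave 2 of 40 (5%) against 5.1%, and the 3-group test 4 of 40 (10%) against 5.83%. These shares lie near the background. The genes were Cacng6 and Cacnb3 in the first of these, Cacna1h, Cacng6 and Hcn4 in the second, Hcn3 and Cacnb3 in the third, and Cacng6, Cacna1h, Hcn3 and Cacnb3 in the 3-group test.

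Most differences were small. In overexpression against control 33 of the 40 genes differed by less than 0.2 on the log2 scale, with 24 positive and a median of 0.03, where the median of all genes was 0.0038. In knockdown against control 31 of 40 differed by less than 0.2, with 22 positive and a median of 0.01, where that of all genes was 0.0047. Overexpression against knockdown gave 34 of 40 within 0.2, with 19 positive and a median of -0.0033, where that of all genes was 0.00020. Both first comparisons share the control libraries. For the abundant genes the SE sets the reach of the test, as for Scn2a, whose differences were -0.02 ± 0.059 with overexpression and -0.09 ± 0.059 with knockdown.

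**Figure D2:**
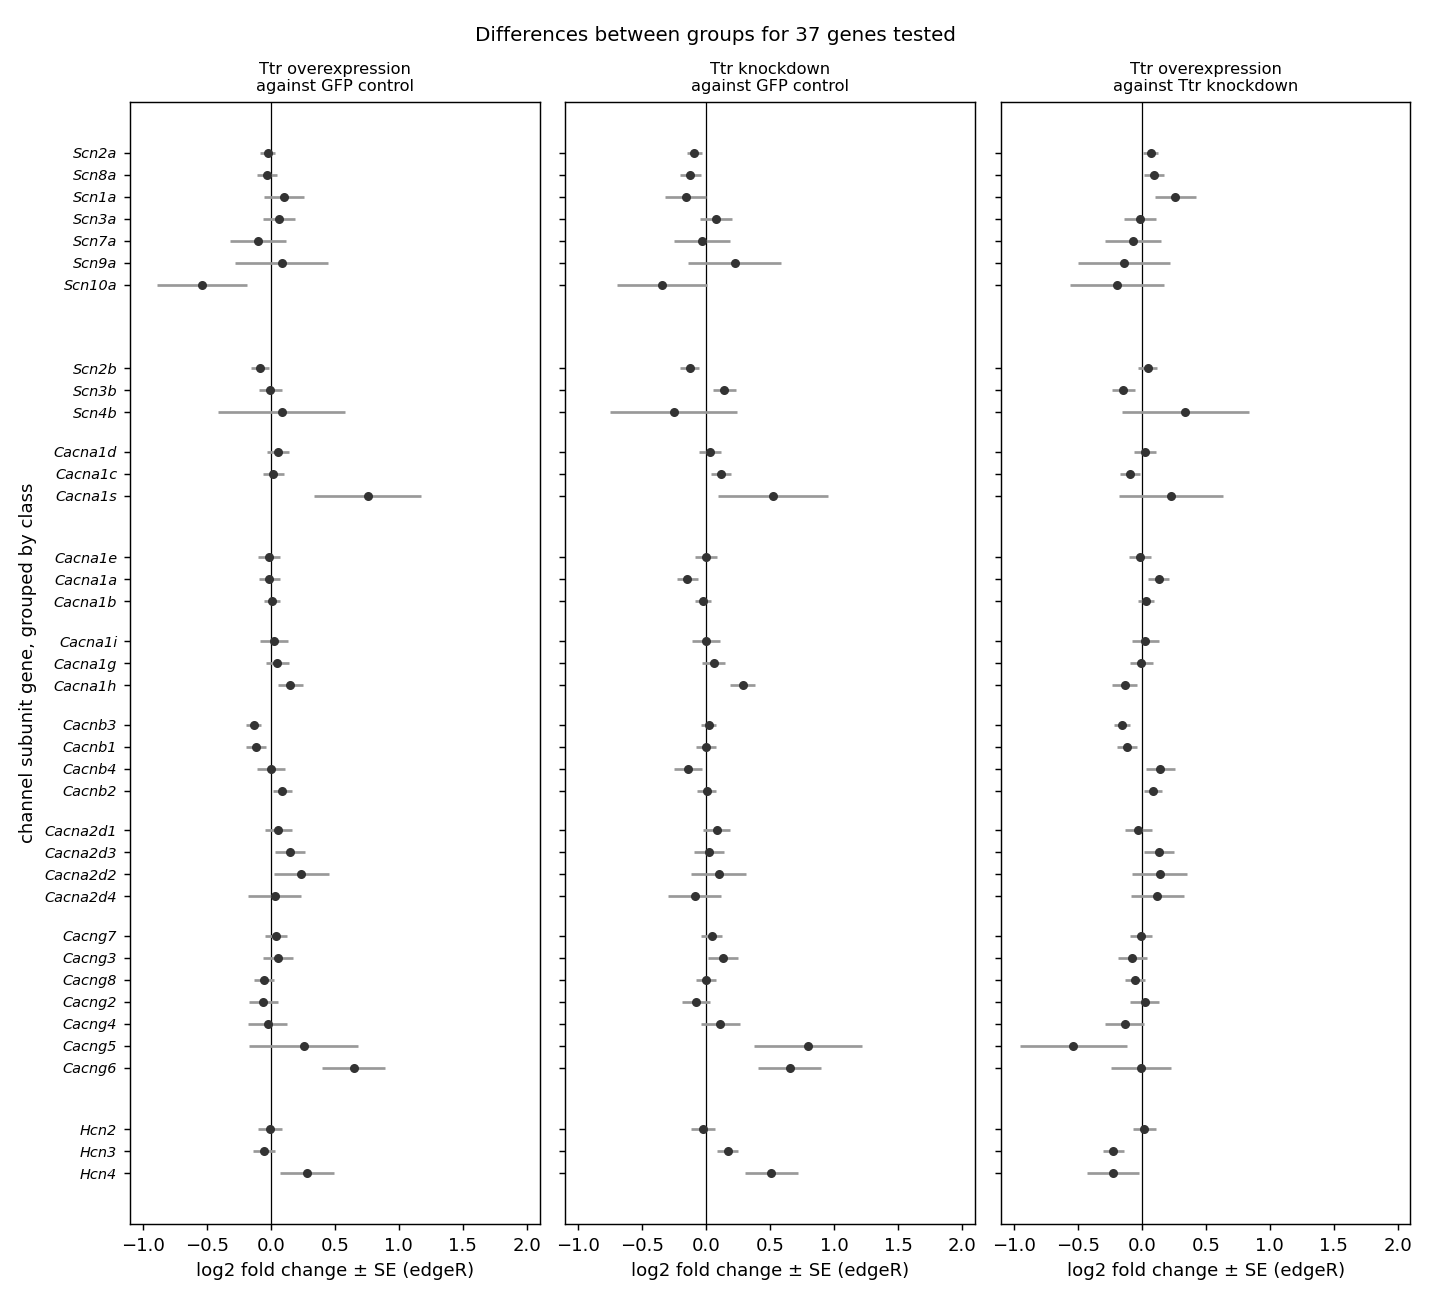
Log2 fold change with its SE from edgeR for 37 of the 40 genes tested, by class, in overexpression against control, knockdown against control and overexpression against knockdown. Points lie close to 0 except for genes of low level such as Cacna1s, Cacng6 and Scn10a and for Cacng5 and the abundant but scattered Scn4b, all with wide errors.

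In knockdown against control, groups did not overlap for 3 of the 40 genes. Higher in all knockdown libraries were 2 of 40 (5%), Hcn4 among them, where all genes gave 2.78%, and lower in all of them was 1 of 40 (2.5%), Scn8a, where all genes gave 1.33%. Hcn4 had 1.93, 2.01, 1.85 and 1.45 TPM in controls and 2.43, 2.66, 2.67 and 2.59 TPM with knockdown. The 4 knockdown values lay close together and above every control, at 2.59 ± 0.113 TPM (SD, n = 4) against 1.81 ± 0.2495. The log2 difference was 0.51 ± 0.21 (SE) with an edgeR adjusted p of 0.843, so it did not pass. With overexpression Hcn4 had 1.67, 2.18, 1.75 and 3.63 TPM, where replicate 4 stood alone above all other libraries. Markers of thalamic or medial habenular neurons, where HCN channels are prominent, were also measured. Of these 4 genes 3 were higher in mean with knockdown, 0 passed and none was at 0 in a library, and their sum was 36.9 to 68.9 CPM against 28.4 to 35.7 in controls. That gap rested on Calb2, since without it the sum was 18.4 to 28.4 CPM with knockdown against 18.1 to 19.9 CPM in controls, and the score of the list overlapped between the groups. Overexpression replicate 4, where Hcn4 was highest, also had the highest score of this list (0.378). Their part in the Hcn4 values was not tested.

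Scn8a was lower in every knockdown library, with 75.0, 74.8, 72.1 and 67.2 TPM against 77.4, 75.2, 85.7 and 76.3 TPM in controls. The gap between the groups was narrow, since the highest knockdown and the lowest control libraries nearly met. Its log2 difference was -0.13 ± 0.081, with an edgeR adjusted p of 0.912.

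The smallest p-value in knockdown against control belonged to Cacna1h, a T-type subunit. Cacna1h had 14.8, 12.1, 15.2 and 17.1 TPM in controls, 17.97, 15.2, 15.5 and 19.6 TPM with overexpression and 17.9, 17.7, 20.98 and 15.8 TPM with knockdown. Its ranges overlapped, with control replicate 4 above knockdown replicate 4. The log2 difference was 0.29 ± 0.10 with an edgeR adjusted p of 0.77. Cacng6 had 0.989, 1.099, 1.503 and 0.776 TPM in controls and 1.47, 2.05, 1.83 and 1.65 TPM with knockdown, touching only through control replicate 3 (0.65 ± 0.25, edgeR adjusted p = 0.8288). Hcn3 had 9.77, 8.998, 9.88 and 10.7 TPM in controls and 12.1, 10.4, 10.7 and 11.04 TPM with knockdown (0.17 ± 0.083, edgeR adjusted p = 0.897). Both were mostly higher with knockdown and neither passed. Cacng5, a TARP, had 6.91, 19.4, 8.42 and 4.603 TPM with knockdown against 4.11, 6.45, 4.72 and 7.28 TPM in controls. This rested on replicate 2, since the log2 difference was 0.79 ± 0.42 (edgeR adjusted p = 0.897) and 0.25 without it. Immediate early genes, 7 markers of recent neuronal activity, were all higher in mean in this comparison, 1 of them passed, none was at 0, and they had a sum of 455 to 858 CPM against 319 to 371 in controls. All 7 were also higher in mean in overexpression against control, where 0 passed and their sum with overexpression, 344 to 602 CPM, overlapped the controls. The part of these 7 genes in the channel gene values was not tested.

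In overexpression against control, groups overlapped for all 40 genes, where 1.88% of all genes were higher and 0.837% lower without overlap. Cacng6 had the smallest p-value, with 1.96, 1.24, 1.53 and 2.59 TPM against the control values given above. The log2 difference was 0.65 ± 0.24 (edgeR adjusted p = 0.736), from 32 to 48 counts against 14 to 43. Of vessel wall and meningeal markers, 10 of 10 were higher in mean with overexpression and 0 passed, with none at 0 and a sum of 232 to 331 CPM against 165 to 220 in controls. The Cacng6 difference was 0.20 when their score was a covariate, and 0.31 without the 3 libraries with a striatal score above 1. That vessel wall and meningeal score was 0.22 to 0.98 with overexpression, -0.76 to 0.02 in controls and -0.32 to 0.09 with knockdown. It thus separates overexpression from both other groups. Fits with this covariate, here and below, cannot tell the score from the group, and smaller differences are not evidence of its part in them. Cacnb3 had the next smallest p-value (252 ± 8.57 TPM with overexpression against 268 ± 11.6 TPM in controls, SD, n = 4), a difference of -0.13 ± 0.06 (edgeR adjusted p = 0.792), and -0.04 with the same covariate. Neither of these 2 genes passed.

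Other differences with small p-values here depended on few libraries or few counts. Cacna1s had 0.2202, 0.247, 0.280 and 0.897 TPM with overexpression and 0.232, 0.1997, 0.222 and 0.247 TPM in controls, a difference of 0.76 ± 0.42 (edgeR adjusted p = 0.836) that was 0.09 without replicate 4. Only that library stood above the rest. Cacna1h, given above, differed by 0.15 ± 0.10 (edgeR adjusted p = 0.851), and by 0.08 without control replicate 2 or without overexpression replicate 4. Scn10a had 19, 7, 7 and 18 counts with overexpression, where replicates 2 and 3 were low, and 16 to 19 in controls (-0.54 ± 0.35, edgeR adjusted p = 0.857). It was -0.12 with the vessel wall and meningeal score as a covariate. It was -0.29, -0.35 and -0.89 without overexpression replicates 2, 3 and 4.

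**Figure D3:**
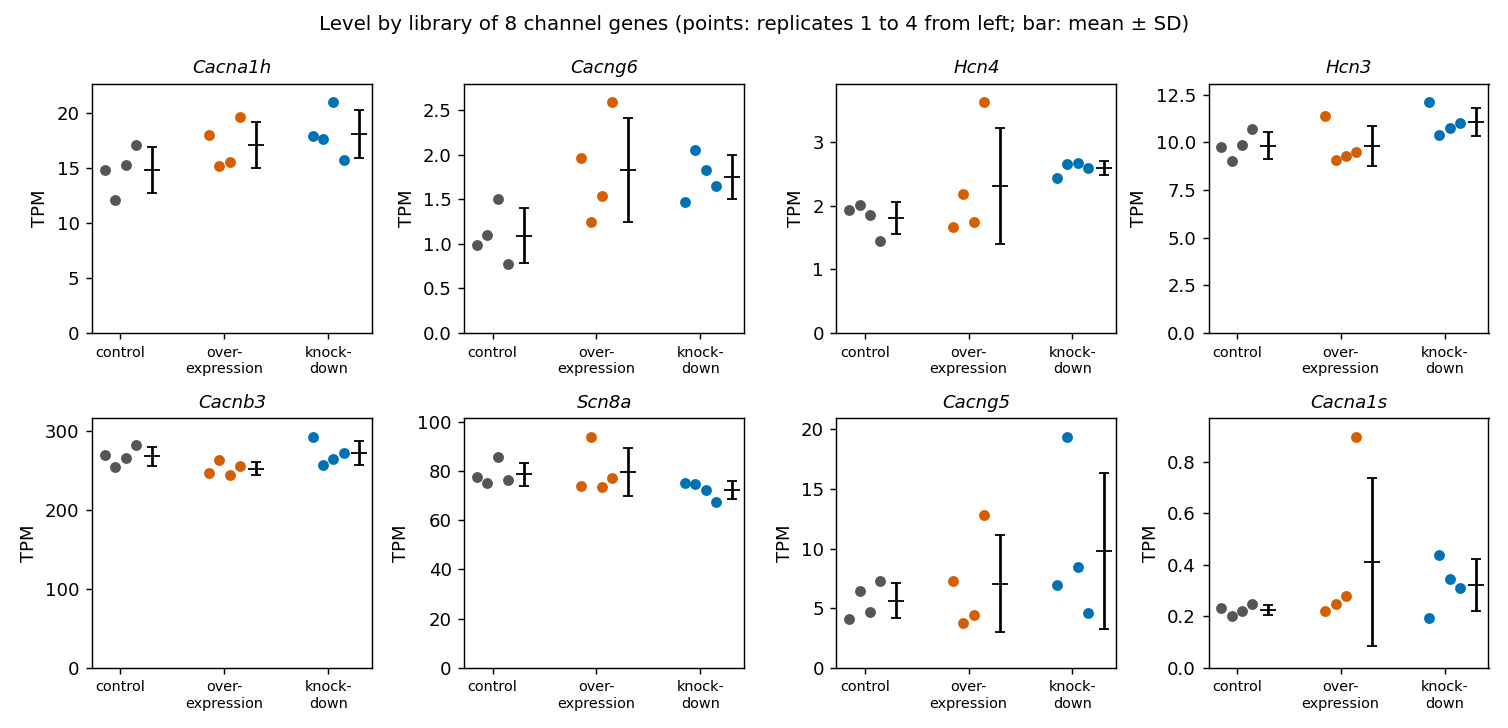
TPM by library of 8 channel genes, with points for replicates 1 to 4 from left to right in each group and a bar for the mean ± SD. Hcn4 lies between 2.43 and 2.67 TPM in the 4 knockdown libraries, above all 4 controls, while Cacng5 and Cacna1s each have 1 high library.

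Overexpression against knockdown compares raised with targeted Ttr directly, and groups overlapped for all 40 genes, where 1.23% of all genes were higher and 1.14% lower without overlap. The smallest p-values belonged to Hcn3 and Cacnb3, and neither passed. Hcn3 had 11.4, 9.08, 9.27 and 9.47 TPM with overexpression against the knockdown values above (-0.22 ± 0.083, edgeR adjusted p = 0.967), and overexpression replicate 1 lay inside the knockdown range. For Cacnb3 the difference was -0.15 ± 0.06 (edgeR adjusted p = 0.967). When the vessel wall and meningeal score was a covariate they were -0.14 for Hcn3 and -0.09 for Cacnb3. Scn1a and Cacna1a pointed the other way, and both rested on overexpression replicate 2. Scn1a had 35.6, 57.4, 38.5 and 45.8 TPM with overexpression and 35.4, 43.9, 35.1 and 29.3 TPM with knockdown (0.26 ± 0.16, edgeR adjusted p = 0.974), and its difference was 0.10 without that library. Cacna1a had 43.5, 54.3, 43.1 and 43.9 TPM with overexpression and 42.6, 41.1, 41.8 and 37.9 TPM with knockdown (0.13 ± 0.082, edgeR adjusted p = 0.974), and 0.03 without it. Both genes were highest in that library. Scn3b differed by -0.15 ± 0.09 (edgeR adjusted p = 0.974), with -0.24 and -0.07 without overexpression replicates 1 and 2. Cacnb1 differed by -0.11 ± 0.078 (edgeR adjusted p = 0.974), with -0.07 without overexpression replicate 3 and -0.05 without knockdown replicate 1, and turned to 0.03 with that covariate.

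Summed over a class, levels of the groups overlapped in most cases. Sodium channel alpha subunits summed to 251 ± 18.8 TPM in controls (mean ± SD, n = 4), 259.9 ± 12.99 with overexpression and 235 ± 14.1 with knockdown. Calcium channel beta subunits gave 508 ± 18.9, 495 ± 22.04 and 503 ± 22.5 TPM in that order, and the gamma and TARP class 447 ± 11.5, 468 ± 26.5 and 467 ± 19.2 TPM. The alpha2delta class gave 145 ± 16.9, 162 ± 9.22 and 152 ± 12.8 TPM, with the highest mean under overexpression. The 3 groups overlapped in these last classes. For sodium channel alpha subunits, overexpression (249.5 to 278.4 TPM) lay above knockdown (214.9 to 247.9 TPM) by a narrow gap while both overlapped the controls, and no test was made on the sum.

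Channel genes differed greatly in how much they scattered between libraries of 1 group. The SD within groups on the log2 CPM scale had a median of 0.172 over the 40 genes and 0.15 over all 18289 genes tested. It was under 0.15 for 17 of the 40, with Scn2a (0.078), Cacnb3 (0.082) and Cacna1b (0.086) steadiest, and above 0.3 for 11. Scn4b (0.852), Cacng5 (0.686) and Scn9a (0.601) were among the latter. Of the 11, Scn4b and Cacna2d2 (0.36) were the only ones with a mean above 10 TPM.

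**Figure D4:**
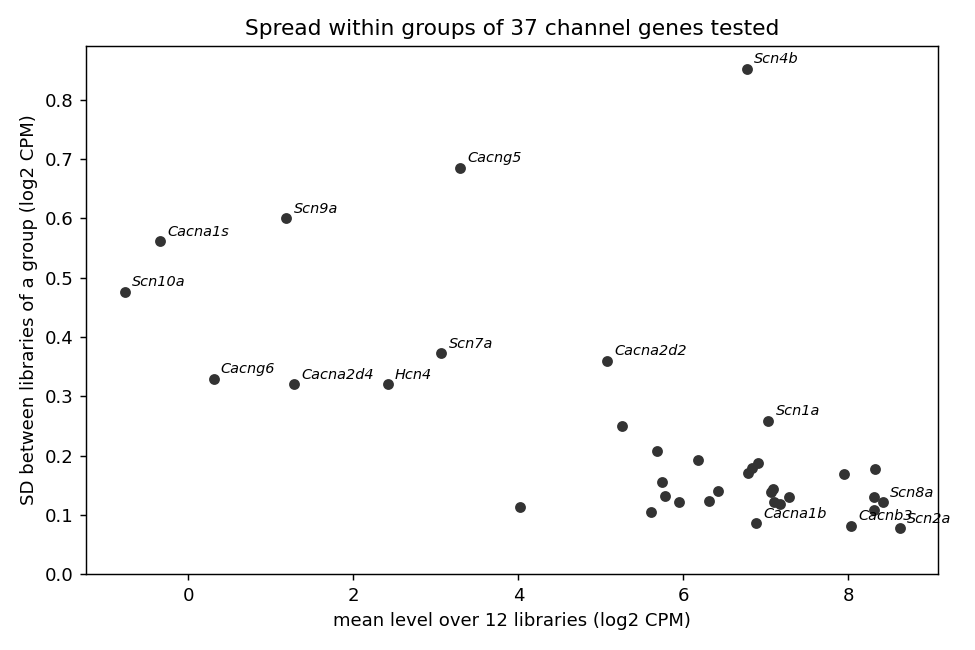
SD between libraries of a group (log2 CPM, pooled over the 3 groups) against mean level (log2 CPM over 12 libraries) for 37 of the 40 genes tested. Scn4b stands apart at 0.852 among the abundant genes, while most others at that level lie under 0.2.

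Several channel genes followed the striatal marker score of the library, the mean centred log2 CPM of the 8 striatal genes, across all 12 libraries. Over 80 relations (40 genes by a striatal score and a vessel wall and meningeal score), 4 passed both Pearson's and Spearman's two-sided permutation test after Benjamini-Hochberg adjustment, all with the striatal score. Cacng4, a TARP, went up with the score (r = 0.89, adjusted permutation p = 0.0104, rho = 0.87, adjusted permutation p = 0.0147, n = 12). Cacna2d2 did so too (r = 0.85, adjusted permutation p = 0.0155, rho = 0.90, adjusted permutation p = 0.0072). Cacna1g went down with the score (r = -0.84, adjusted permutation p = 0.0155, rho = -0.93, adjusted permutation p = 0.0072), as did Cacng2 (r = -0.79, adjusted permutation p = 0.0296, rho = -0.78, adjusted permutation p = 0.0485). Without overexpression replicate 4 and knockdown replicate 3, the libraries farthest from the median score, r was 0.84, 0.72, -0.77 and -0.67. After each group's mean had been subtracted it was 0.93, 0.85, -0.87 and -0.79, and groups of 4 are too small for a value within each. The score and the gene values come from the same libraries, and the part of striatal tissue in these levels was not tested. The score of the cortical excitatory neuron markers was lowest (-0.36) in overexpression replicate 4, where the striatal score was highest (1.63). It was highest (0.17) in overexpression replicate 2, where the striatal score was lowest (-1.48). In control replicate 4, with a striatal score of 1.23, it was 0.05. Relations of the channel genes to the excitatory neuron score were not tested.

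Other channel genes leaned the same ways and did not pass both tests. Cacnb2 passed with Pearson's r only (r = 0.81, adjusted permutation p = 0.0238, rho = 0.71, adjusted permutation p = 0.121). Cacng3 and Cacng5 passed with Spearman's rho only (-0.80 and 0.81, adjusted permutation p = 0.0454 and 0.0454). Scn4b had r = 0.75 (adjusted permutation p = 0.071) and rho = 0.65 (adjusted permutation p = 0.146), and overexpression replicate 2, with the lowest score, had 72.03 TPM of Scn4b, more than in 8 of the other 11 libraries. The score separates libraries and not groups, running from -1.17 to 1.23 in controls, -1.48 to 1.63 with overexpression and -1.28 to 1.44 with knockdown. With the vessel wall and meningeal score 0 of 40 relations passed, the strongest being Cacnb3 (r = -0.67, adjusted permutation p = 0.121, rho = -0.69, adjusted permutation p = 0.132), which was r = -0.53 without the 2 libraries farthest from the median score and -0.36 after group means had been subtracted.

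**Figure D5:**
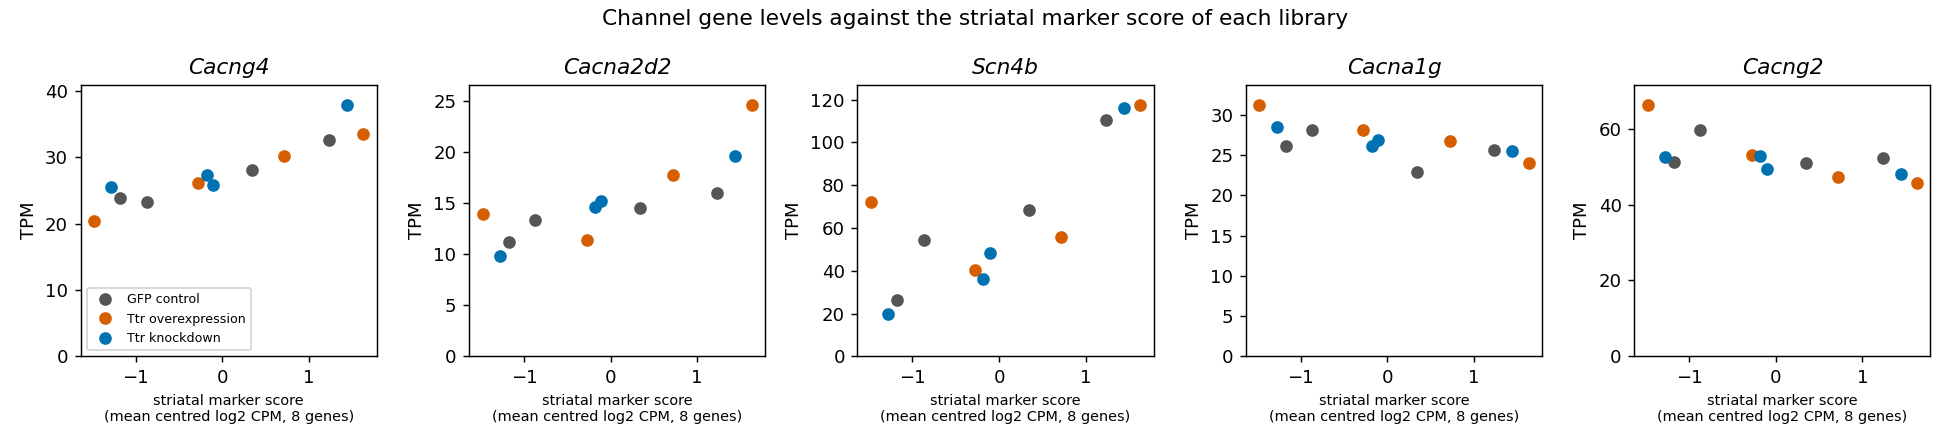
TPM of 5 channel genes against the striatal marker score of each of the 12 libraries (mean centred log2 CPM of 8 genes), coloured by group. Cacng4 and Scn4b are highest in the 3 libraries with scores above 1, 1 of each group, while Cacna1g and Cacng2 are highest in the library with the lowest score.

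Partners of these channels did not pass either. The list held 31 genes, most with products that bind, anchor or regulate the channels. Nalcn, Unc79 and Unc80 instead belong to a separate sodium leak channel, and Cnih2 and Cnih3 are AMPA receptor partners of TARPs. All 31 were tested and 0 passed in edgeR in each comparison. At an unadjusted edgeR p below 0.05 there were 0 of them in overexpression against control, 2 in knockdown against control, both lower, and 1 in overexpression against knockdown. These are 0%, 6.45% and 3.23% of the list, where all genes gave 6.26%, 5.68% and 5.1%, so the counts lie near or below the background. The 2 were Kctd3, a partner of HCN channels (-0.15 ± 0.056, edgeR adjusted p = 0.8288), and Ank2, an ankyrin of the axonal membrane skeleton (-0.10 ± 0.046, edgeR adjusted p = 0.878). Kctd3 had 57.5, 55.1, 56.2 and 49.02 TPM with knockdown and 56.6, 61.7, 59.3 and 63.2 TPM in controls, where knockdown replicate 1 lay within the control range. Ank3, which gathers sodium channels at the axon initial segment, was next (-0.10 ± 0.053, edgeR adjusted p = 0.897). Cabp1 and Rims1 were lower in all knockdown than in all control libraries, 2 of 31 (6.45%), where all genes gave 1.33%. Both gaps were narrow. Rims1 had 251.7 CPM in knockdown replicate 1 and 253.8 in control replicate 4. Cabp1 had 135.0 CPM in knockdown replicate 1 and 139.0 in control replicate 2, and 95.3 to 177.7 CPM with overexpression. Neither was below an unadjusted edgeR p of 0.05. Of the 31, 21 were negative with knockdown (median -0.03) and 23 with overexpression (median -0.02), where 48.2% and 48.6% of all genes were negative. Both comparisons share the control libraries, so these are not independent counts. Of the 6 excitatory neuron markers, 2 were positive with knockdown and 1 with overexpression. Of 6 inhibitory neuron markers, 5 were positive in each. The part of cell content in the partner values was not tested. In overexpression against control the smallest p-values were those of Fgf11, of a family that binds sodium channels (0.27 ± 0.15, and 0.09 without overexpression replicate 4), Kctd3 (-0.10 ± 0.056) and the calmodulin gene Calm3 (-0.13 ± 0.085, and -0.08 and -0.21 without overexpression replicates 1 and 2), with edgeR adjusted p of 0.836, 0.839 and 0.855. The Kctd3 difference turned to 0.02 when the vessel wall and meningeal score was a covariate. In overexpression against knockdown the smallest p-values were those of Cnih2, Stac and Ank3. Cnih2, an auxiliary subunit of AMPA receptors, differed by -0.21 ± 0.10 (edgeR adjusted p = 0.967), and by -0.07 with that covariate. The calcium channel adaptor Stac differed by -0.76 ± 0.37 (edgeR adjusted p = 0.974), and by -0.48 without overexpression replicate 2. Ank3 differed by 0.08 ± 0.053 (edgeR adjusted p = 0.974), and by 0.05 without knockdown replicate 4.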

How the data were processed

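Counts, TPM and variance-stabilised values of 12 mouse prefrontal cortex libraries were analysed. Counts were deposited by the authors as whole numbers per gene, not normalized. Per the labels' protocols, 500 ng of RNA per sample went into poly(A) enrichment and a directional library kit whose adaptors hold unique molecular identifiers. Per the submitters' processing notes, which give no role or order, the build was GRCm38 (mm10) and the tools included DESeq2, featureCounts, UMI-tools and bcl2fastq 2.20.0.422. The deposited TPM values equalled counts divided by one length per gene and scaled, with 100% of values of 18498 genes within 0.01 on the log2 scale. Another deposited table holds variance-stabilised log2 values, which equal 7.10 wherever the count is 0, and their transformation is not given in the sources used here, nor are the aligner, the strand setting and the use of the identifiers. Symbols and coordinates came from GENCODE release M21 on GRCm38 (55141 of 55401 identifiers matched, the others holding 0.00474% of counts). Levels are the deposited TPM. Tests used edgeR 4.0.16 in R 4.3.3 with TMM factors, the default filter by group and 1 fit of 3 group means over 12 libraries (18289 genes, square root of the common dispersion 0.126), tested on simulated data. CPM used the TMM factors, and log2 CPM a prior count that edgeR scales by library size. DESeq2 1.42.0, limma 3.58.1 (also for voom), TPM with pseudocounts of 0.1 and 1, other scalings, filters, covariates and left-out libraries were alternatives. Permutation tests used 100000 permutations in Python 3.11.15, and figures matplotlib 3.10.9. Replicates of every group differed by more than counting error (chi-square per degree of freedom 5.37 to 28.4). The members, lists and tests were chosen with earlier results of these data known. Fold changes are given for the 6 members and 3 partners with the smallest p in each pairwise comparison, for any that passed and for members whose groups did not overlap in CPM. Members shown for their scatter or their relation to a marker score were chosen after their values were seen. Results on 3 of the genes are not reported here, although counts and medians over all members include them. Counting intervals were not needed, as each group has replicates.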

Additional observations from a re-analysis of the deposited data

Results flagged for a closer look

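In 7 of 111 sets of 4 libraries (37 genes in 3 groups), 1 library's TPM stood apart from the other 3 by Dixon's criterion for 4 values, which chance gives in about 1 of 20 sets. In overexpression libraries these were Cacna1a in replicate 2 (54.3 TPM, others 43.1 to 43.9), Cacna1s in replicate 4 (0.897 TPM, others 0.22 to 0.28) and Hcn3 in replicate 1 (11.4 TPM, others 9.08 to 9.47). In controls, replicate 3 stood apart for Cacng2 (59.5 TPM, others 51.1 to 52.2). Control replicate 2 stood apart for Hcn2 (119.2 TPM, others 101.4 to 104.3) and, on the low side, for Scn9a (0.274 TPM, others 0.632 to 0.68). With knockdown, Cacng4 stood apart in replicate 3 (37.9 TPM, others 25.6 to 27.3), which is the knockdown library with the highest striatal marker score (1.44).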

How the results depend on the processing

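The count of channel subunit genes called was 0 in each of the 3 pairwise comparisons under all 25 alternatives, and 0 in the 3-group test under all 24, each left-out library included (0 to 0). Unadjusted calls ranged from 0 to 7 in overexpression against control, 1 to 7 in knockdown against control, 0 to 5 in overexpression against knockdown and 0 to 5 in the 3-group test. Of 700 values of the 28 named differences under alternatives, 698 kept their direction and stayed uncalled, while 77 moved by more than 1.5 times. When the vessel wall and meningeal score was a covariate 2 reversed, Kctd3 in overexpression against control (0.0203) and Cacnb1 in overexpression against knockdown (0.0291), and the cause was not tested. That score also separates overexpression from both other groups, so covariate and group cannot be told apart in these fits. Over all genes, DESeq2 called 41, 43 and 4 genes in the 3 pairwise comparisons, in the order used above, and 66 in the 3-group test, against 1, 1, 1 and 2 in edgeR. Limma-voom called 0, 1, 0 and 0, and edgeR with no filter on low counts 20, 22, 1 and 39. With the replicate number as a block, 0 channel genes were called in each comparison, and the 3 pairwise counts over all genes were 1, 0 and 2. Leaving out each library in turn, they ranged from 0 to 4, 0 to 10 and 0 to 2, and the 3-group count from 1 to 6. Same-numbered libraries did not deviate together (correlations of -0.34 to 0.16), which gave no sign of pairing by number but cannot exclude it. Leaving out the 3 libraries with a striatal score above 1, or the 3 below -1, both chosen after seeing the data, also gave 0 channel genes. Low counts limit what can be seen for genes under about 1 TPM.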

Other observations

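The TARP gene Cacng5 was highest in knockdown replicate 2, at 19.4 TPM where the other 11 libraries had 3.79 to 12.8 TPM. Calb2, the calretinin gene of some interneurons and of thalamic and habenular neurons, was highest in the same library, with 50.6 CPM where the other 11 had 8.32 to 23.7 CPM. In that library neither Tcf7l2 (2.77 CPM) nor Prkcd (8.77 CPM), both on the same marker list, stood out. Gad1, a marker of inhibitory neurons, was also highest there, with 469 CPM where the other 11 had 235 to 344 CPM, while Gad2 and Slc32a1 were higher in other libraries. These genes were chosen after their values were seen.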
